A study of Mus musculus with 8 samples.

Results

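The 7 genes described here make up the core of MHC class II antigen presentation: Cd74, H2-Aa, H2-Ab1, H2-Eb1, H2-DMa, H2-DMb1 and Ciita. They were taken by gene identifier from a table of raw counts for 57010 mouse Ensembl genes, and all 7 were found in it. The table holds 8 whole-retina poly(A) RNA-seq libraries from untreated mice, each made from 1 whole retina, with 2 libraries per group. The groups were wild-type (WT) retina at postnatal day 15 (P15) and rd10 retina at P15, P18 and P21. The rd10 mice were homozygous for a missense mutation of Pde6b, which encodes the beta subunit of the rod phosphodiesterase, and their rods degenerate from about the third postnatal week. WT mice were C57BL/6J, and wild-type littermates are named as the controls of rd10 mice. No WT library at P18 or P21 was analysed here, so that age and genotype change together in every comparison of rd10 P18 or P21 with WT, while the genotype is the same within rd10. Nothing in the labels says whether the 2 retinas of a group came from separate animals or litters. In rd10 P18 and in rd10 P21, Y-linked genes had 6011 and 19 counts and 7193 and 3 counts in the 2 libraries. These pairs thus hold 1 male and 1 female retina from separate animals. For the P15 groups this stays unknown. The p-values measure only the spread between these samples, which in the P15 groups may be technical.

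MHC class II molecules are pairs of an alpha and a beta chain that carry peptides from endocytosed proteins to the cell surface, where CD4+ T cells read them. In the mouse, H2-Aa and H2-Ab1 encode the alpha and beta chains of the I-A molecule and H2-Eb1 the beta chain of I-E. Cd74, the invariant chain, fills the groove of a new pair and guides it to endosomes, and the H2-DM pair (H2-DMa with H2-DMb1) then exchanges the remaining Cd74 fragment for other peptides. Ciita is the transactivator on which transcription of these genes depends, and interferon gamma is its best known inducer outside professional antigen-presenting cells. In healthy retina, class II is scarce and is found on few cells, and microglia are known to express it when activated.

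In GRCm38 with the GENCODE M21 annotation, 5 of the 7 genes lie close together in the MHC on chromosome 17: H2-DMa at chr17:34119541-34139101, H2-DMb1 at chr17:34153072-34160230, H2-Ab1 at chr17:34257689-34269419, H2-Aa at chr17:34282744-34287823 and H2-Eb1 at chr17:34305867-34316674. H2-Aa is on the minus strand and the other 4 are on the plus strand. Ciita lies at chr16:10480059-10528418, on the plus strand, and Cd74 at chr18:60803848-60812652, also on the plus strand. All 7 are annotated as protein coding.

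Library totals ran from 28076947 to 33724562 counts, so that 1 count was worth between 0.0285 and 0.0370 CPM, the count scaled to library size after TMM normalization (trimmed mean of M-values). A gene at 0 counts may therefore lie anywhere up to 3 counts, or between 0.0856 and 0.111 CPM depending on the library, and these limits cover counting error only. The rod genes Gnat1, Pde6a, Sag and Nrl, which define the retinal label, together stood at 20237 and 18924 CPM in WT P15, 14658 and 15067 CPM in rd10 P15, 12107 and 12126 CPM in rd10 P18, and 8979 and 11005 CPM in rd10 P21, so that each P18 and P21 library, where class II was higher, was below each P15 library. The libraries differed in sex as well as in group. Y-linked genes had 5530 to 7193 counts in 4 libraries (rd10 P15, both replicates, and the first replicate of P18 and of P21) and 3 to 19 counts in the other 4. The comparison of rd10 P15 with WT P15 therefore sets 2 male against 2 female retinas, and in the later rd10 groups replicate 1 is male and replicate 2 female.

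Class II promoters are known for a conserved block of X and Y boxes bound by the RFX, CREB and NF-Y factors that Ciita docks to. The RefSeq promoter windows of the file used here, from 250 bases before to 50 bases after a transcription start on GRCm38.p6, covered 4 of the 7 genes. The windows of H2-Aa (chr17:34287774-34288073, minus strand), H2-Eb1 (chr17:34305617-34305916, plus strand) and H2-DMb1 (chr17:34152941-34153240, plus strand) are printed because they hold the inner Y box letters TGATTGG, shown in capitals. In H2-Eb1 and H2-DMb1 the capitals also mark a run of 13 bases, AACTGATGATGCT, that both windows share.
H2-Aa: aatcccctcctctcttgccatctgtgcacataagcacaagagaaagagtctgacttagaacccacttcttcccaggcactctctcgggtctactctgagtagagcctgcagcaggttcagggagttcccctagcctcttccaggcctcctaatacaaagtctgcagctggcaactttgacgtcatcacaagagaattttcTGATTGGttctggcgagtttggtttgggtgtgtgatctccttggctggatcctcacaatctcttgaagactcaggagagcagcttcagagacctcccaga
H2-Eb1: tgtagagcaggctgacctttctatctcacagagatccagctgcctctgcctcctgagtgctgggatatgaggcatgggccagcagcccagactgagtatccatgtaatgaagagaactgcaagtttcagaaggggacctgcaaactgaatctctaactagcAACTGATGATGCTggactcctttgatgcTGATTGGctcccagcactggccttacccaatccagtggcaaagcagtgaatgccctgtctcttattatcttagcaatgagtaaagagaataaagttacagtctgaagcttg
H2-DMb1: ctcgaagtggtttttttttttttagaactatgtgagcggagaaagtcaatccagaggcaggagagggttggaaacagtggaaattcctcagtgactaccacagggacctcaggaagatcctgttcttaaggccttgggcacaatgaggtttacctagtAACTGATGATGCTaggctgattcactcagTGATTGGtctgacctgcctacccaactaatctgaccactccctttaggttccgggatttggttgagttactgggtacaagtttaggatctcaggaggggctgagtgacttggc

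The inner Y box began 50 bases before the start in H2-Aa, 61 bases before it in H2-Eb1 and 63 bases before it in H2-DMb1. On either strand, TGATTGG was present in 7.82% of the 32851 windows of all genes. The longer Y box CTGATTGG, which contains it, was found in H2-Aa and H2-Eb1 and in 4.1% of all windows. The shared run of 13 bases began 89 bases before the start of H2-Eb1 and 92 bases before that of H2-DMb1. This is upstream of the Y box in both, which is where the X box lies in class II promoters. The run occurred in 3 of the 32851 windows (0.00913%), these 2 among them. It was taken from these windows as the longest stretch they share, so its rarity is a description and tests nothing. The longest run that H2-Aa shared with either window had 8 bases. A looser X box core, CCNAGNNAC, was found in H2-Aa and H2-DMb1 and in 17.3% of all windows. The cyclic AMP response letters TGACGTCA began 74 bases before the start of H2-Aa and occurred in 1.79% of all windows. A STAT site, TTCNNNGAA, was in none of the windows of these 4 genes and in 8.3% of all windows. Neither of the 2 windows of H2-DMa held any of these letters. TGATTGG and TGACGTCA were added to the search after these windows had been read, and a match describes letters only.

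Cd74 had the highest CPM of the 7 genes in both rd10 P18 libraries and in replicate 1 of rd10 P21, and H2-DMa in replicate 2 of rd10 P21. It stood at 1.33 and 0.194 CPM in WT P15, 1.08 and 0.494 CPM in rd10 P15, 16.3 and 12.04 CPM in rd10 P18, and 31.3 and 3.08 CPM in rd10 P21 (replicates 1 and 2, in this order throughout). Both P18 and both P21 libraries were above all 4 P15 libraries, and the 2 rd10 P21 libraries lay on either side of the 2 at P18. In whole retina, more cells that express a gene and more RNA per such cell cannot be told apart. Calls required a p under 0.05 after Benjamini-Hochberg adjustment over all 20457 tested genes, and an absolute log2 fold change above 1. On these terms edgeR's quasi-likelihood test called Cd74 in none of the 6 comparisons of groups, with an unadjusted p under 0.05 in 4 of them. Its log2 fold change against WT P15 was 4.24 ± 1.32 (SE, n = 2 libraries per group) at P18, with an edgeR adjusted p of 0.19. At P21 it was 4.51 ± 1.33, with an edgeR adjusted p of 0.27. Without rd10 P21 replicate 1 it was 2.03 (edgeR adjusted p 0.758), and without replicate 2 it was 5.38 (edgeR adjusted p 0.0678). DESeq2, the tool used by the study, called both (adjusted p 0.0256 at P18 and 0.0225 at P21). In rd10 P15 retina the log2 fold change against WT P15 was 0.08 ± 1.33, and the libraries of these groups overlapped.

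Between replicates of a group, Cd74 differed by 6.85-fold in WT P15, 2.19-fold in rd10 P15, 1.36-fold in rd10 P18 and 10.2-fold in rd10 P21. The WT P15 values rest on 36 and 6 counts and the rd10 P21 values on 1095 and 88 counts, so that counting error is small beside the gap at P21. Replicate 2 of rd10 P21 still held more Cd74 than any P15 library, 3.08 CPM against a highest P15 value of 1.33 CPM.

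**Figure D1:**
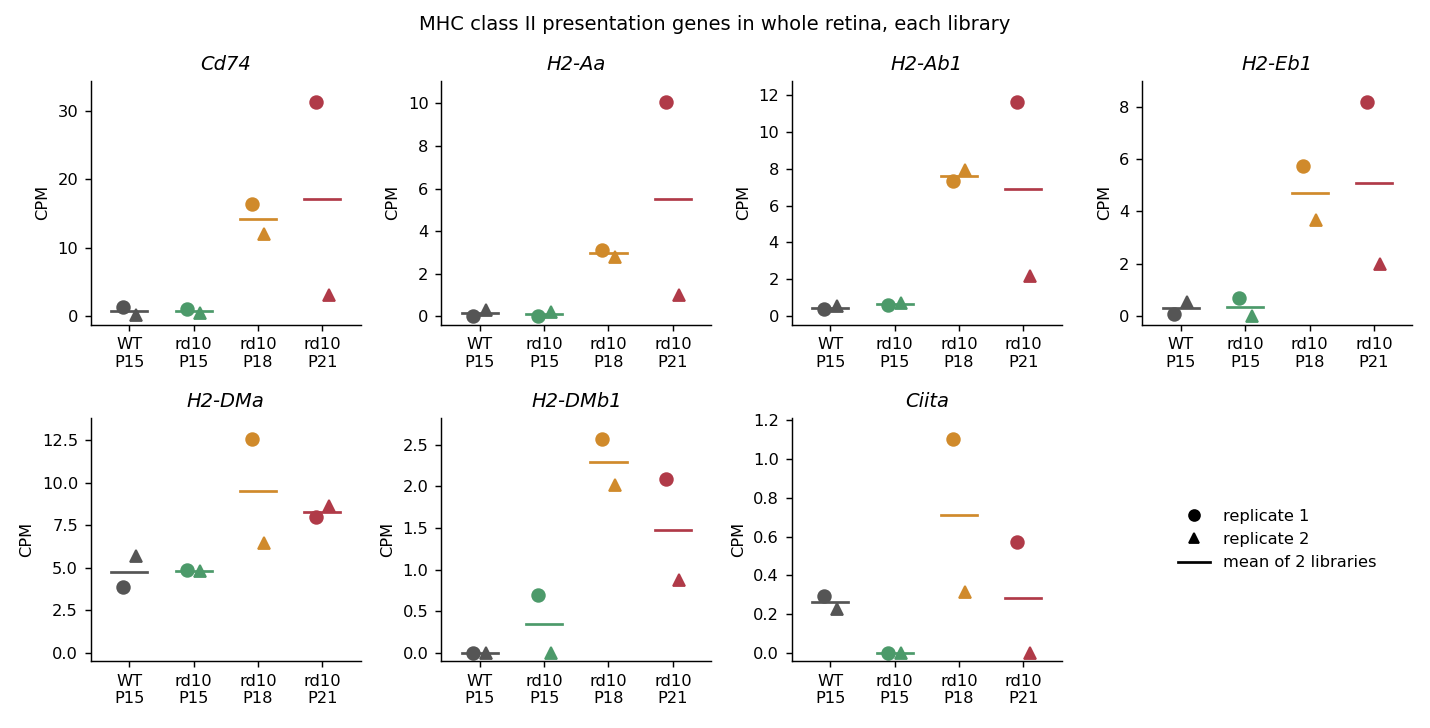
CPM of each of the 7 genes (one panel and one linear axis per gene) in the 8 retinal libraries. Circles are replicate 1, triangles replicate 2 and bars the mean of both. H2-Ab1 lay between 7.31 and 7.94 CPM in rd10 P18 and between 0.370 and 0.740 CPM in the 4 P15 libraries, while the 2 rd10 P21 libraries were far apart for Cd74, H2-Aa, H2-Ab1 and H2-Eb1 and close for H2-DMa.

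Among the I-A and I-E chains, H2-Ab1, the I-A beta chain, rose in rd10 P18 retina. The WT P15 libraries had 0.370 and 0.550 CPM of it, and it stood at 0.605 and 0.740 CPM in rd10 P15, 7.31 and 7.94 CPM in rd10 P18, and 11.6 and 2.20 CPM in rd10 P21. The 2 libraries of rd10 P18 were within 1.09-fold of each other and above every P15 library, and H2-Ab1 was also higher in both rd10 P15 libraries than in both WT libraries. Its log2 fold change at P18 against WT P15 was 4.03 ± 0.76 (mean CPM 7.62 ± 0.45 against 0.460 ± 0.128, SD, n = 2), and it was the single gene of the 7 that edgeR called (adjusted p 0.0405). The call was lost when replicate 1 of WT P15, of rd10 P15 or of rd10 P18 was left out, and without replicate 2 of WT P15 or of rd10 P15. It was also lost with a term for sex (edgeR adjusted p 0.061). In these fits the log2 fold change of H2-Ab1 lay between 3.59 and 4.35. Fewer of all genes were called higher in each of these fits too. With the term for sex there were 154 of 20457, against 235 in the main fit. At P21 the log2 fold change against WT P15 was 3.89 ± 0.75 (edgeR adjusted p 0.0836), and without rd10 P21 replicate 2 it was 4.64 (edgeR adjusted p 0.0133), but without replicate 1 it was 2.24 (edgeR adjusted p 0.262). At P15 it was 0.54 ± 0.75 (edgeR adjusted p 0.847).

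H2-Aa, the I-A alpha chain, was at 0 and 0.291 CPM in WT P15, 0 and 0.176 CPM in rd10 P15, 3.13 and 2.77 CPM in rd10 P18, and 10.05 and 0.979 CPM in rd10 P21. Each P18 and P21 library was above every P15 library, where the gene had at most 9 counts. Its log2 fold change against WT P15 was 4.26 ± 1.58 at P18 and 5.16 ± 1.62 at P21, with edgeR adjusted p-values of 0.237 and 0.275. H2-Aa ran below H2-Ab1 in each library, at 0.429 and 0.349 of its CPM in rd10 P18 and at 0.867 and 0.444 in rd10 P21. The log2 CPM of the 2 partner chains had a Pearson correlation of 0.95 over the 8 libraries, which share depth and group and serve as a description.

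H2-Eb1, the I-E beta chain, was at 0.0739 and 0.550 CPM in WT P15, 0.700 and 0 CPM in rd10 P15, 5.73 and 3.69 CPM in rd10 P18, and 8.17 and 1.99 CPM in rd10 P21. Again each P18 and P21 library was above all P15 libraries, and the P15 groups overlapped. The log2 fold change against WT P15 was 3.87 ± 1.44 at P18 and 3.98 ± 1.45 at P21, with edgeR adjusted p-values of 0.239 and 0.35. The alpha chain gene of I-E, which C57BL/6 mice are known not to express, is annotated as a pseudogene (H2-Ea-ps) and had 0 counts in all 8 libraries. H2-Eb1 was therefore measured without a partner chain. An antisense gene, Gm20513, overlaps H2-Eb1, but shares 0 exonic bases with it and had 0 counts in each library.

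Of the H2-DM pair, H2-DMa was already expressed at P15 and differed less between groups than Cd74 and the I-A and I-E chains did. It was at 3.84 and 5.67 CPM in WT P15, 4.87 and 4.79 CPM in rd10 P15, 12.6 and 6.46 CPM in rd10 P18, and 7.99 and 8.6 CPM in rd10 P21. All 4 libraries of rd10 P18 and P21 were above the 4 at P15, though by little in P18 replicate 2. The log2 fold change against WT P15 was 1.00 ± 0.37 at P18 and 0.80 ± 0.36 at P21, with edgeR adjusted p-values of 0.216 and 0.445. Without rd10 P18 replicate 2 it was 1.40 at P18 (edgeR adjusted p 0.0272), and without replicate 1 it was 0.44 (edgeR adjusted p 0.627), so that the size at P18 depends on replicate 1. H2-DMa shares 360 of its 3448 exonic bases with Brd2 on the opposite strand, and the library method described in the labels does not mark the strand, so reads there cannot be assigned between them. Brd2 lay between 173 and 230 CPM, and the part of H2-DMa that comes from it was not tested.

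H2-DMb1, the other chain of the pair, was at 0 counts in both WT libraries. It was at 0.700 and 0 CPM in rd10 P15, 2.57 and 2.02 CPM in rd10 P18, and 2.08 and 0.874 CPM in rd10 P21. With 3 counts taken as the limit for both WT libraries together, it was at least 44.2-fold higher in rd10 P18 retina. In rd10 P21 retina the same bound was at least 28.6-fold higher, with edgeR adjusted p-values of 0.103 and 0.192 at these ages. DESeq2 called both (adjusted p 0.000928 and 0.00465), but the gene passed the filter on low counts only through these later groups. Of the 50-base words in its transcripts, 22.7% also occur in H2-DMb2, a near copy with 93.7% identity over 1220 aligned bases, so the split of reads between the 2 genes is uncertain. H2-DMb2 had 0 counts in all P15 libraries and between 0 and 20 counts in the others.

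Ciita, the transactivator, was near the limit of detection in every group. It was at 0.296 and 0.227 CPM in WT P15, 0 and 0 CPM in rd10 P15, 1.1 and 0.315 CPM in rd10 P18, and 0.571 and 0 CPM in rd10 P21. The highest count was 37, in rd10 P18 replicate 1, and both P18 libraries were above both WT libraries, while the P21 libraries lay on either side of WT. Its log2 fold change against WT P15 was 1.43 ± 1.79 at P18 and 0.14 ± 1.78 at P21, with edgeR adjusted p-values of 0.738 and 0.992. With 3 counts as the limit for both rd10 P15 libraries together, Ciita was at least 5.20-fold lower in rd10 P15 than in WT P15, with an edgeR adjusted p of 0.434 and 0 counts against 8 and 7. It was at least 14.1-fold higher in rd10 P18 than in rd10 P15, with an edgeR adjusted p of 0.324. Of its 9535 exonic bases, 329 overlap Dexi on the opposite strand.

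The summed CPM of the 7 genes overlapped between rd10 and WT retina at P15 (7.96 and 6.20 against 5.91 and 7.48) and was higher in every P18 and P21 library. At P15, 0 of 7 were called by edgeR, which called 0.137% of all genes higher, and 0 by DESeq2, which called 1.15% higher. At an unadjusted p under 0.05 there was 1 of 7, against 12.3% of all genes in either direction. Both rd10 P15 libraries were above both WT libraries for 1 of 7, H2-Ab1, against 24.8% of all genes. The median log2 fold change was 0.08, and over all genes tested it was -0.01.

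In rd10 P18 against WT P15, edgeR called 1 of 7 higher (H2-Ab1), against 1.15% of all genes, and DESeq2 called 5 of 7 (Cd74, H2-Aa, H2-Ab1, H2-Eb1 and H2-DMb1), against 3.46%. H2-Aa, H2-DMb1 and Ciita passed the filter on low counts only through the later groups, so the counts that include them are descriptions. At an unadjusted p under 0.05 there were 6 of 7, against 17.4% of all genes. Both P18 libraries were above both WT libraries for 7 of 7 genes, against 24.1% of all genes. The median log2 fold change was 4.03, with 0.01 over all genes. In rd10 P21 against WT P15, edgeR called 0 of 7, against 0.244%, with 5 at an unadjusted p under 0.05 (11.8% of all genes), and DESeq2 called 5 of 7, against 2.26%. These were the 5 genes that DESeq2 called at P18, and both comparisons use the same WT libraries. Both P21 libraries were above both WT libraries for 6 of 7 genes, all but Ciita, against 24.9% of all genes, and the median log2 fold change was 3.98.

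Within rd10, where genotype was held fixed but the P15 libraries were both male, the differences were of like size. For P18 against P15, edgeR called 0 of 7 (0.523% of all genes were called higher), with 6 at an unadjusted p under 0.05 (12.9% of all genes), and DESeq2 called 3 of 7 (Cd74, H2-Aa and H2-Ab1), against 2.32%. Both P18 libraries were above both rd10 P15 libraries for 7 of 7 genes, against 21.9% of all genes, and the median log2 fold change was 3.71. The log2 fold change of H2-Ab1 was 3.50 ± 0.73 (edgeR adjusted p 0.0969). With only the 4 libraries of these groups in the fit, edgeR called H2-Ab1 (adjusted p 0.0351) and Cd74 (adjusted p 0.037). That fit called 113 of all 20457 genes higher.

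For P21 against P15 within rd10, edgeR called 0 of 7 (0.298% of all genes were called higher), with 4 at an unadjusted p under 0.05 (12.8% of all genes), and DESeq2 called 4 of 7 (Cd74, H2-Aa, H2-Ab1 and H2-Eb1), against 2.05%. Both P21 libraries were above both rd10 P15 libraries for 6 of 7 genes, against 26% of all genes. The median log2 fold change was 3.82, or 3.36 with Ciita at its bound, since Ciita had 0 counts in rd10 P15. Between P21 and P18, edgeR called 0 of 7 (0.00489% of all genes were called higher) and DESeq2 0 of 7 (0.24%), with 0 at an unadjusted p under 0.05 (10.8% of all genes). The median log2 fold change was -0.14, and 3 of 7 genes had a positive one. With 2 libraries against 2, the exact permutation test of a single gene cannot go below a two-sided p of 0.333, which it reached wherever the libraries did not overlap.

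**Figure D2:**
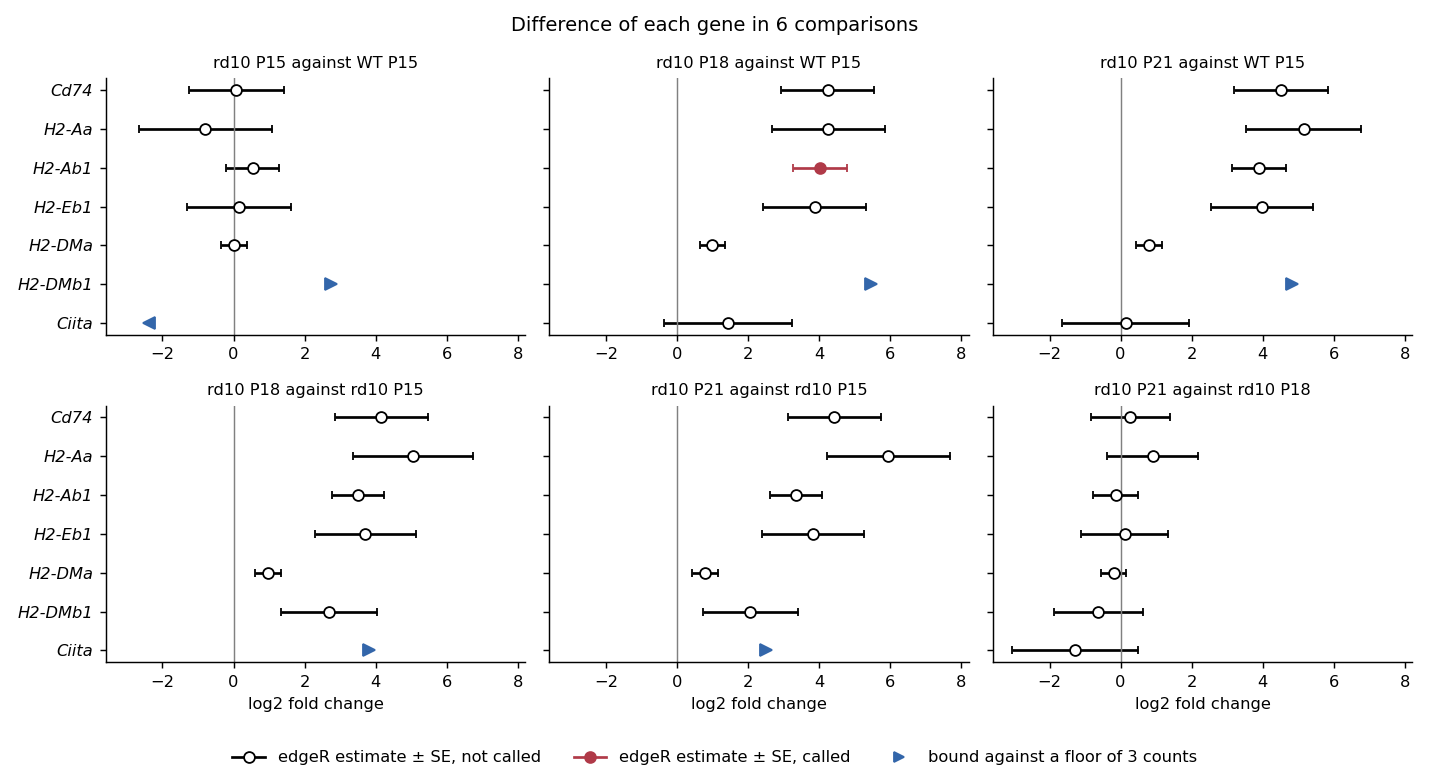
Log2 fold change of each gene in the 6 comparisons (edgeR, points with SE). The filled red point is called at adjusted p under 0.05, and blue triangles are bounds for a gene with 0 counts in 1 of the groups, set against 3 counts. The I-A and I-E chains and Cd74 lie between 3.36 and 5.95 in the 4 comparisons of rd10 P18 or P21 with a P15 group, and H2-DMa lies between 0.78 and 1.00.

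All 7 genes passed the filter on low counts with the 8 libraries. On the P15 libraries alone Cd74, H2-Ab1, H2-Eb1 and H2-DMa would have passed, so H2-Aa, H2-DMb1 and Ciita were tested because of the later groups in which they were higher. The counts and medians over the 7 genes in each comparison include them and are descriptions.

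Divided by the length of their exons, the levels of the 7 genes changed in order between P15 and P18. In WT P15 retina H2-DMa was highest at 1.38 ± 0.37 CPM per kb (SD, n = 2), with Cd74 next at 0.454 ± 0.479 CPM per kb, and the libraries of these genes did not overlap. Cd74, H2-Ab1 and H2-Eb1 overlapped there. In rd10 P15 retina H2-DMa was again highest, at 1.40 ± 0.02 CPM per kb. In rd10 P18 retina Cd74 was highest at 8.45 ± 1.82 CPM per kb. H2-Ab1 (2.97 ± 0.17), H2-DMa (2.76 ± 1.25) and H2-Eb1 (2.42 ± 0.74) followed, in CPM per kb, and the libraries of these 3 overlapped. H2-DMb1 (1.36 ± 0.23), H2-Aa (0.777 ± 0.067) and Ciita (0.0744 ± 0.0585) came after them without overlap. In rd10 P21 retina the means kept Cd74 first (10.2 ± 11.9 CPM per kb) and Ciita last (0.0299 ± 0.0423), but in replicate 2 H2-DMa, at 2.49 CPM per kb, was above Cd74, at 1.83. The exon lengths are the union of all exons annotated in GENCODE M21, 3798 bases for H2-Aa and 1681 for H2-DMb1, and may differ from the authors' gene models. The order depends on them. By CPM alone, H2-Aa was above H2-DMb1 in both rd10 P18 libraries (3.13 and 2.77 against 2.57 and 2.02).

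**Figure D3:**
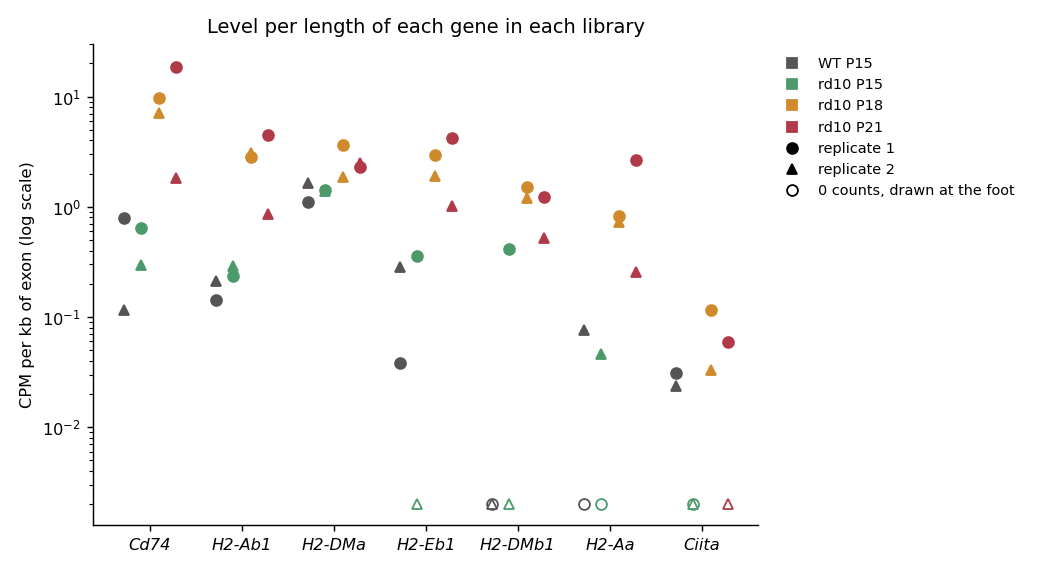
CPM per kb of exon of each gene in each library, on a log axis, with colors for the 4 groups. Circles are replicate 1, triangles replicate 2, and open symbols at the foot mark libraries with 0 counts. Cd74 moves from below H2-DMa at P15 to above it in both rd10 P18 libraries, between 7.17 and 9.74 CPM per kb.

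For Cd74 and H2-Ab1, the 2 rd10 P21 retinas differed by more than those of any other group. Replicate 1 was higher than replicate 2 by 10.3-fold for H2-Aa, 10.2-fold for Cd74, 5.26-fold for H2-Ab1, 4.10-fold for H2-Eb1 and 2.38-fold for H2-DMb1, and Ciita had 20 counts against 0. H2-DMa was an exception at 0.929-fold. Together the 7 genes reached 71.7 CPM in replicate 1 and 17.7 CPM in replicate 2, against 48.7 and 35.2 CPM in rd10 P18 and between 5.91 and 7.96 CPM in the 4 P15 libraries. Cd74 took 43.6% of the summed CPM in replicate 1 and 17.4% in replicate 2.

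The sexes also differed between these 2 retinas. Among the male libraries, Cd74 was at 1.08 and 0.494 CPM in rd10 P15, 16.3 CPM in rd10 P18 and 31.3 CPM in rd10 P21. Among the female libraries, it was at 1.33 and 0.194 CPM in WT P15, 12.04 CPM in rd10 P18 and 3.08 CPM in rd10 P21. H2-Ab1 was at 0.605 and 0.740, 7.31 and 11.6 CPM in the male libraries, and at 0.370 and 0.550, 7.94 and 2.20 CPM in the female ones, in the same order. Within each sex, both genes were higher in the P18 and P21 library than in the P15 libraries. With a term for sex in the fit, the log2 fold change of Cd74 at P15 against WT was -1.78 in place of 0.08, and the part of sex in that comparison cannot be told apart from genotype.

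Genes that serve the same pathway were read from lists. Of 5 other proteins of the endosomal route (Ctss, Ctsl, Ctsb, Lgmn and Ifi30), edgeR called 2 higher in rd10 P18 against WT P15 and 0 at P21, against 1.15% and 0.244% of all genes. The same 2 were called by DESeq2 at both ages, against 3.46% and 2.26%. Both libraries of rd10 P18, and both of rd10 P21, were above both WT libraries for 5 of 5, against 24.1% and 24.9% of all genes. Ctss, cathepsin S, which trims Cd74 to its groove fragment, was at 11.3 and 13.5 CPM in WT P15 and at 62.3 and 47.5 CPM in rd10 P18, with a log2 fold change of 2.14 ± 0.39 and an edgeR adjusted p of 0.0416. Ifi30, the lysosomal thiol reductase that opens disulfide bonds of antigens, was at 3.51 and 3.46 CPM in WT P15 and at 14.7 and 12.4 CPM in rd10 P18, with a log2 fold change of 1.96 ± 0.39 and an edgeR adjusted p of 0.0484. In rd10 P21, Ctss was at 94.5 and 40.6 CPM and Ifi30 at 18.2 and 8.53 CPM, again with replicate 1 above replicate 2.

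Of 5 other class II chains (H2-DMb2, H2-Oa, H2-Ob, H2-Eb2 and H2-Ea-ps), 3 were tested and 0 called in any comparison by edgeR or DESeq2, with at most 1 at an unadjusted p under 0.05. Their summed level was between 0 and 0.356 CPM at P15 and between 0.536 and 1.86 CPM at P18 and P21. H2-Oa, a chain of the H2-DO pair that restrains H2-DM, had 40 and 16 counts in rd10 P21, 7 and 0 in rd10 P18 and 0 in the P15 libraries. Of 6 genes of surface control and costimulation (March1, March8, Cd80, Cd86, Cd40 and Cd83), 5 were tested and 0 were called in any comparison by edgeR or DESeq2, with at most 1 at an unadjusted p under 0.05. Cd86, a costimulatory ligand, had 61 and 35 counts in rd10 P18 and 50 and 30 counts in rd10 P21, against 5 and 10 counts in WT P15.

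The 7 transcription factor genes that assemble on class II promoters (Rfx5, Rfxap, Rfxank, Nfya, Nfyb, Nfyc and Creb1) were all tested, and 0 were called in any comparison by edgeR or DESeq2, with at most 1 at an unadjusted p under 0.05. Their median log2 fold change against WT P15 was -0.04 at P18 and -0.02 at P21. Rfx5 was at 29.5 and 24.7 CPM in WT P15 and at 21.1 and 24.5 CPM in rd10 P18. Creb1 varied most within groups, from 25.2 to 93.7 CPM in rd10 P15.

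Along the interferon gamma route (Ifng, Ifngr1, Ifngr2, Jak1, Jak2, Irf1 and Socs1), 6 of 7 genes were tested. The single member not tested was the cytokine itself: Ifng had 12 counts in rd10 P18 replicate 1 and 0 in the other 7 libraries. Irf1, a transcription factor induced by interferons, was the 1 of 6 that edgeR called in rd10 P18 against WT P15, while 1.15% of all genes were called higher. Irf1 went from 4.32 and 3.72 CPM to 45.5 and 16.1 CPM (log2 fold change 2.94 ± 0.50, edgeR adjusted p 0.0348). It was also called in rd10 P18 against rd10 P15 (adjusted p 0.0406). The receptor and kinase genes were not called in any comparison by either tool.

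Class I presentation genes, which carry cytosolic peptides to CD8+ T cells, summed to 907 and 481 CPM in rd10 P18, 1236 and 333 CPM in rd10 P21 and at most 159 CPM at P15, the same order of the later libraries as for class II. Of 9 (B2m, H2-K1, H2-D1, Tap1, Tap2, Tapbp, Psmb8, Psmb9 and Nlrc5), edgeR called 0 in any comparison, and between 0.00489% and 1.15% of all genes higher. At an edgeR unadjusted p under 0.05 there were 9 in rd10 P18 against WT P15 and 8 at P21, against 17.4% and 11.8% of all genes. DESeq2 called 5 at P18 and 6 at P21, against 3.46% and 2.26%. Both P18 libraries and both P21 libraries were above both WT libraries for 9 of 9, against 24.1% and 24.9% of all genes. Their median log2 fold change against WT P15 was 3.19 at P18 and 2.59 at P21, beside 4.03 and 3.98 for the 7 class II genes. B2m, the common light chain, was at 18.5 and 19.4 CPM in WT P15, 279 and 117 CPM in rd10 P18, and 356 and 80.9 CPM in rd10 P21. Nlrc5, the class I counterpart of Ciita, was at 0.591 and 0.130 CPM in WT P15, 20.9 and 16.9 CPM in rd10 P18 and 27.7 and 4.82 CPM in rd10 P21. The highest Nlrc5 level was thus 27.7 CPM, and the highest of Ciita 1.1 CPM.

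**Figure D4:**
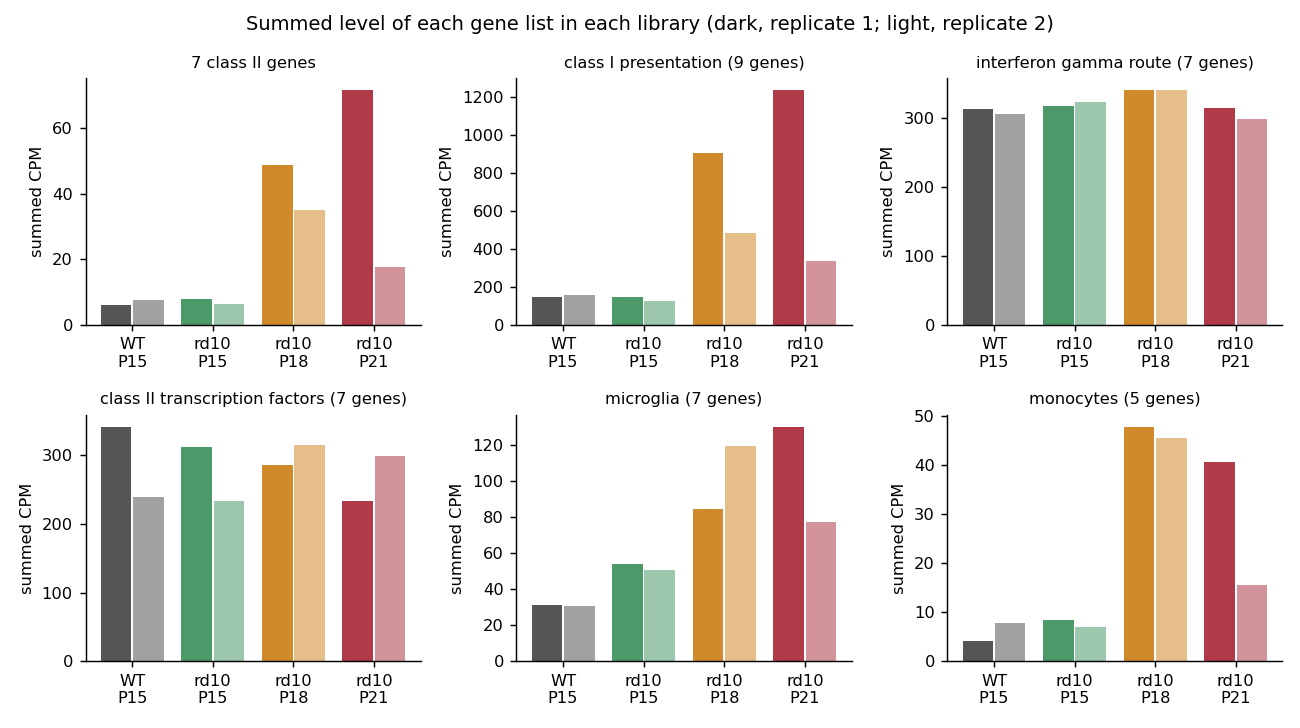
Summed CPM of the 7 class II genes and of 5 other gene lists in each library (bars from 0, replicate 1 dark and replicate 2 light). The class II sum was 71.7 and 17.7 CPM in rd10 P21, the class I sum 1236 and 333 CPM, and the monocyte sum 40.5 and 15.6 CPM, while the transcription factor sum lay between 234 and 341 CPM in all groups.

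Of the markers of cells that can carry class II, those of microglia, leukocytes in general and monocytes summed to higher levels in rd10 P18 and P21 than at P15, and the sums of the dendritic and B cell markers overlapped with those at P15. The 7 microglia genes (Tmem119, P2ry12, Cx3cr1, Csf1r, Aif1, Itgam and Sall1) summed to 31.1 and 30.8 CPM in WT P15, 53.8 and 50.7 CPM in rd10 P15, 84.8 and 119 CPM in rd10 P18, and 130 and 77.3 CPM in rd10 P21. By edgeR 2 of 7 were called higher at P18 against WT P15 (Tmem119 and Itgam) and 1 of 7 at P21 (Itgam), against 1.15% and 0.244% of all genes. The microglia sum was higher in replicate 2 than in replicate 1 of rd10 P18, while the class II sum was lower. Csf1r was the largest part of the microglia sum in each library. In the 2 rd10 P21 libraries Csf1r was at 84.2 and 40.0 CPM, but Cx3cr1 was at 7.54 and 17.8 CPM, the opposite order. P2ry12 was lower in rd10 P18 (4.41 and 3.75 CPM) than in rd10 P15 (7.86 and 8.07 CPM). It was at 2.62 and 3.24 CPM in WT P15 and at 9.02 and 6.08 CPM in rd10 P21. The 3 pan-leukocyte genes (Ptprc, Laptm5 and Coro1a) summed to 51.3 and 49.4 CPM in rd10 P18 and to 76.9 and 32.3 CPM in rd10 P21, against 15.9 to 26.6 CPM at P15.

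The 5 monocyte genes (Ccr2, Ly6c2, Plac8, Lyz2 and Chil3) summed to between 4.07 and 8.37 CPM in the 4 P15 libraries, to 47.7 and 45.3 CPM in rd10 P18, and to 40.5 and 15.6 CPM in rd10 P21. Most of this sum was Lyz2 in each library, at 33.8 and 39.6 CPM in rd10 P18 and 29.7 and 15.5 CPM in rd10 P21. The sum thus mainly follows that gene. By edgeR 1 of the 4 tested was called at P18 against WT P15, while 1.15% of all genes were called higher. This was Lyz2, with a log2 fold change of 2.66 ± 0.42 (edgeR adjusted p 0.0291). Ccr2 had 84 and 85 counts in rd10 P18, 81 and 3 in rd10 P21 and at most 4 at P15, and Ly6c2 had 162 and 64, 230 and 0, and at most 8. Replicate 2 of rd10 P21, the later library with the least Cd74, thus had 3 counts of Ccr2 and 0 of Ly6c2 and Plac8.

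Of the 7 dendritic cell genes (Flt3, Zbtb46, Xcr1, Clec9a, Cd209a, Itgax and Ccr7), Xcr1, Clec9a and Cd209a had at most 6 counts in any library, and Itgax had 86 and 44 counts in rd10 P18, 146 and 0 in rd10 P21 and 0 at P15. The summed level of the 7, mostly Flt3 and Zbtb46, lay between 11.9 and 18.3 CPM in all libraries, with 0 of 3 tested genes called in any comparison by edgeR or DESeq2 and at most 1 at an unadjusted p under 0.05. Border macrophage genes (6) summed to between 14.7 and 25.3 CPM, nearly all of it Lyve1, with Cd209f at 0 in every library and 0 of 3 tested genes called by edgeR. DESeq2 called 2 of these 3 (Mrc1 and Ms4a7) at P18 and P21 against WT P15, where it called 3.46% and 2.26% of all genes higher. Mrc1 had 24 and 26 counts in rd10 P18, 4 and 58 in rd10 P21, and at most 9 at P15. The B cell genes Cd79a and Ms4a1 had at most 5 counts, and the 5 B cell genes summed to at most 1.92 CPM. The T cell genes Cd3e and Cd3d had at most 4 counts, and the 6 T and NK cell genes summed to at most 3.64 CPM, most of it Cd8a. That gene was at 0.407 and 0 CPM in WT P15, 2.83 and 3.31 CPM in rd10 P15, 2.36 and 1.17 CPM in rd10 P18, and 1.54 and 0.804 CPM in rd10 P21. DESeq2 called it in rd10 P15 (adjusted p 0.0116) and rd10 P18 (adjusted p 0.0476) against WT P15, and edgeR in no comparison (lowest adjusted p 0.212). The 5 red blood cell genes (Hba-a1, Hba-a2, Hbb-bs, Hbb-bt and Alas2) summed to 188 and 177 CPM in WT P15 and 67.1 and 84.6 CPM in rd10 P15. They summed to 160 and 56.8 CPM in rd10 P18, and 125 and 133 CPM in rd10 P21. Of tissues that can adhere to a dissected retina, the 5 pigment epithelium genes summed to between 284 and 553 CPM. Most of this was Rlbp1, at 271 to 426 CPM, while Rpe65 was at 0.693 to 19.8 CPM. The 5 melanocyte genes summed to between 9.09 and 105 CPM, and both sums were highest in rd10 P15. The 5 lens genes summed to 0.443 and 0.0971 CPM in WT P15, 1.97 and 1.83 CPM in rd10 P15, 5.25 and 2.52 CPM in rd10 P18, and 1.26 and 0.839 CPM in rd10 P21. The 5 endothelium genes summed to 231 and 298 CPM in WT P15, 361 and 312 CPM in rd10 P15, 261 and 327 CPM in rd10 P18, and 498 and 385 CPM in rd10 P21. Genes of reactive Muller glia (Gfap, Lcn2, Serpina3n, Edn2 and Fgf2) summed to between 44.4 and 83.6 CPM at P15, 1025 and 891 CPM in rd10 P18, and 470 and 350 CPM in rd10 P21. Of these, 4 of 5 were called by edgeR at P18 against WT P15 and 3 of 5 at P21, against 1.15% and 0.244% of all genes. The part of the rods, glia, microglia, other leukocytes, blood, vessels, pigment epithelium, melanocytes and lens in the class II result was not tested.

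Set against the microglia genes, class II was higher in rd10 P18 than at P15. Per 100 CPM of the 7 microglia genes, Cd74 stood at 4.28 and 0.632 CPM in WT P15, 2.01 and 0.973 CPM in rd10 P15, 19.3 and 10.1 CPM in rd10 P18, and 24.0 and 3.98 CPM in rd10 P21. Both P18 libraries were above all P15 libraries, while rd10 P21 replicate 2 was below WT P15 replicate 1. H2-Ab1 on the same scale was at 1.19 and 1.79, 1.12 and 1.46, 8.62 and 6.65, and 8.91 and 2.85 CPM in these groups, so that all later libraries were above all P15 libraries. The microglia genes themselves did not move as 1 list, so these values depend on which of them are summed. Relative to Ptprc alone, Cd74 ranged from 0.146 to 4.50 in WT P15, which includes both rd10 P18 values (3.70 and 2.37). The 4.50 rests on 36 counts of Cd74 and on Ptprc at 0.296 CPM. H2-Ab1 relative to Ptprc was at 1.25 and 0.415 in WT P15, and 0.576 and 0.553 in rd10 P15. It was at 1.66 and 1.57 in rd10 P18, above all P15 libraries. In rd10 P21 it was at 0.770 and 0.384, which overlapped with P15.

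**Figure D5:**
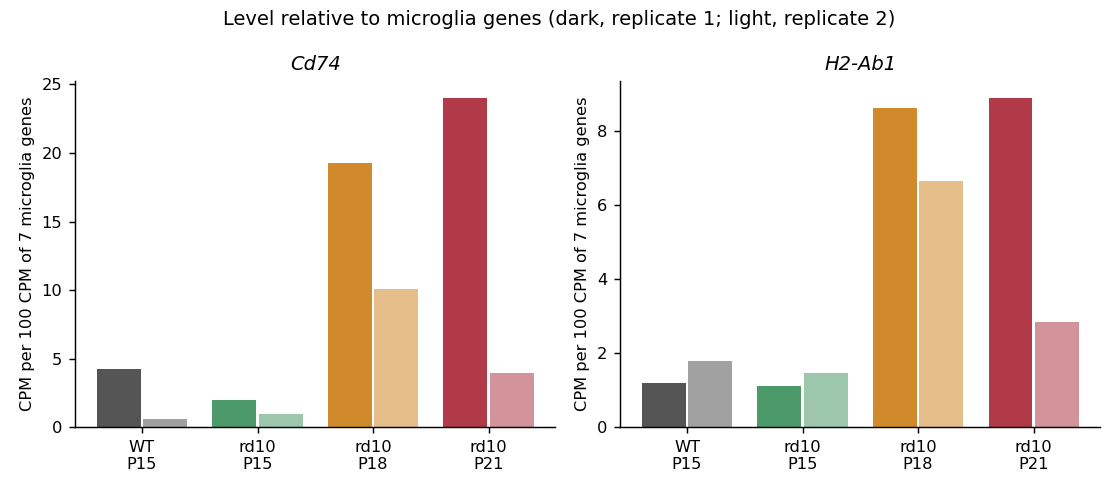
CPM of Cd74 and H2-Ab1 per 100 CPM of the 7 microglia genes in each library (bars from 0, replicate 1 dark and replicate 2 light). H2-Ab1 lay between 6.65 and 8.62 in rd10 P18 and between 1.12 and 1.79 at P15, and rd10 P21 replicate 2 was at 2.85.

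Genes whose pattern was most like that of Cd74 were taken as the 5 with the highest Pearson correlation of log2 CPM over the 8 libraries, among 16201 tested genes with a mean of at least 1 CPM outside the 7. They were Pik3ap1 (r = 0.992), Cd48 (0.984), Slfn9 (0.978), Calca (0.976) and Oas1a (0.976). Within the 7, the correlation with Cd74 was 0.93 for H2-Ab1, 0.88 for H2-DMb1, 0.83 for H2-Eb1, 0.82 for H2-Aa, 0.68 for H2-DMa and 0.60 for Ciita. The 8 points are 2 libraries of 4 groups and share group and depth, and these values are descriptions.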

How the data were processed

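Whole-retina RNA was sequenced by the authors as poly(A) libraries, and their deposited table holds raw counts per Ensembl gene, whole numbers without normalization. HISAT2 is named in the submitters' processing notes, without a version. Of the counting tool, genome build and annotation nothing is given in the sources used here. Positions, symbols and exon lengths came from GENCODE M21 (GRCm38), and promoter windows from RefSeq (GRCm38.p6).

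Low genes were removed with edgeR's filterByExpr (10 counts at least, 15 in total), and the rest were scaled by TMM and fitted in edgeR 4.0.16 (R 4.3.3) by the quasi-likelihood method with robust=TRUE to all 8 libraries. P-values were adjusted by Benjamini-Hochberg over 20457 genes, with calls at 0.05 and an absolute log2 fold change of 1. The SE is the log2 fold change divided by the square root of F. Log2 CPM used a prior count of 2. DESeq2 1.42.0, the study's tool, was an alternative, as were other scalings, filters, sample sets, terms for replicate number and sex, and each library left out. The fits were tested on simulated data. A few genes of the rod, microglia and interferon gamma lists are not reported here and were left out of their lists' counts and sums. Named genes are the 7 members, those of the pathway and marker lists that were called or show a range, and the 5 genes most like Cd74. Itgax, Ccr2, Ly6c2, Plac8, P2ry12, Rlbp1, Rpe65 and the other marker genes given by count were chosen after their values were seen. Members and lists were chosen with earlier results of these data known. Total counts were 28076947 to 33724562 per library. Replicates differed beyond sampling noise in every group.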

Additional observations from a re-analysis of the deposited data

How the results depend on the processing

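In rd10 P18 against WT P15, the 1 call (H2-Ab1) became 5 with DESeq2. It became 0 with the replicate number as a block and 0 with a term for sex. Over all genes, 235 calls higher became 708 with DESeq2, 188 with the block and 154 with the term for sex. In rd10 P21 against WT P15, the 0 calls became 5 with DESeq2 and 1 without a filter on low counts. Over all genes, 50 calls higher became 462 with DESeq2 and 116 of 29411 genes without the filter. In rd10 P18 against rd10 P15, the 0 calls became 3 with DESeq2, 2 with only the 4 libraries compared and 1 with a term for sex. Over all genes, 107 calls higher became 474, 113 and 224 in these fits. In rd10 P21 against rd10 P15, the 0 calls became 4 with DESeq2, and 61 calls higher over all genes became 420. With 1 library left out, the member calls changed in some fits of each of these comparisons. The calls over all genes changed as well, and such fits hold 1 library in a group. The sign of a log2 fold change turned only in differences that were not called. At P15 against WT, the term for sex gave -1.78 for Cd74, -0.58 for H2-Ab1, -1.17 for H2-Eb1 and -0.41 for H2-DMa, and the block gave -0.47 for H2-Eb1. For Ciita against WT P15, the term for sex gave -0.34 at P18 and -2.70 at P21, and the block -0.85 at P21. At P21 against P18, Cd74 was at -0.47 with the block and -0.47 with the term for sex, and H2-Eb1 at -0.12 and -0.17. With 1 library left out, the log2 fold changes at P15 against WT ranged from -0.74 to 2.01 for Cd74, -5.27 to 4.46 for H2-Aa, -6.31 to 2.21 for H2-Eb1 and -0.23 to 0.33 for H2-DMa, that of Ciita at P21 against WT from -6.00 to 1.12, and those at P21 against P18 from -2.20 to 1.14 for Cd74, -1.59 to 1.77 for H2-Aa, -1.79 to 0.60 for H2-Ab1, -1.24 to 0.79 for H2-Eb1 and -0.60 to 0.36 for H2-DMa. Of 630 log2 fold changes of single genes under an alternative, 569 kept direction and side of the threshold, 27 turned, 27 gained the call and 7 lost it. The cause of these changes was not tested. The term for sex is estimated from rd10 P18 and P21 alone, since the P15 groups hold 1 sex each. Deviations of same-numbered replicates correlated between -0.02 and 0.06, and the main fit holds no term for the numbers. Whether same-numbered retinas share a litter or day was not tested, and in rd10 P18 and P21 the numbers coincide with sex. Library size as the sole scaling moved the median of all genes against WT P15 to 0.13 for rd10 P18 and 0.11 for rd10 P21, and the members' changes stand relative to it. Low counts limit H2-Aa, H2-Eb1, H2-DMb1 and Ciita at P15, where 1 library often decides the value.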
